A study of Homo sapiens with 4 samples.

Results

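The 55 genes described here encode the folding, import and quality-control machinery of the endoplasmic reticulum (ER): chaperones, oxidoreductases, the protein translocation channel, signal peptidase, oligosaccharyltransferase, ER-associated degradation factors and the sensors of the unfolded protein response. They were taken by name from a fixed list, and all 55 were found among the 25680 gene rows of the count tables. The libraries come from THP-1, an established human monocytic leukaemia line, and the study asked how expression changes in acute myeloid leukaemia cells when PIWIL4, a PIWI-family Argonaute gene, is knocked down. The control group carried a lentiviral construct with a scrambled short hairpin RNA (Scrambled, n = 2 libraries) and the other group a construct with a hairpin against PIWIL4 (shPIWIL4, n = 2 libraries). Cells of both groups were transduced and sorted 48 h later, and libraries were made from total RNA. The treatment label of the shPIWIL4 libraries also contains the word scrambled, so the groups follow the sample titles. Each group is 1 hairpin in 1 cell line, with no further hairpin and no rescue analysed here, so an effect of lower PIWIL4 and another effect of the hairpin cannot be told apart. The titles mark the 2 libraries of a group exp. rep1 and exp. rep2, without saying whether they came from separate cultures. The p-values thus measure the spread between these libraries, which may be technical.

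Proteins bound for the cell surface, for secretion or for lysosomes and granules enter the ER through the Sec61 channel, lose their signal peptide, receive N-linked glycans and are folded by the Hsp70 chaperone BiP, by Hsp90-type and lectin chaperones and by protein disulfide isomerases. When unfolded proteins build up, the sensors IRE1, ATF6 and PERK start the unfolded protein response, in which the factors XBP1 and ATF6 raise chaperone and degradation genes and PERK acts through ATF4. Monocytic and granulocytic cells make large amounts of granule and lysosomal proteins and so use this machinery heavily.

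Total counts ran from 31458079 in Scrambled library 1 to 53657246 in shPIWIL4 library 2. PIWIL4 itself stood at 38.5 and 37.2 CPM (read counts scaled to the size of the library with TMM factors) in Scrambled libraries 1 and 2 and at 17.8 and 17.4 CPM in shPIWIL4 libraries 1 and 2, the direction the labels name. All 12 monocytic leukaemia markers checked were detected, although CD14 stayed at or under 2.45 CPM in every library. Together they summed to 1112 and 1115 CPM in Scrambled and 2509 and 2531 CPM in shPIWIL4, in which LYZ alone went from 143 and 151 CPM to 1803 and 1817 CPM. Without LYZ the sum was 969 and 963 CPM in Scrambled and 706 and 714 CPM in shPIWIL4. Of the 12 markers, LYZ and FCGR1A were called higher, PTPRC, MPO, CD4, MEIS1 and CSF1R were called lower, and 5 were not called. The part of these shifts in the results on the ER genes was not tested. Markers of T cells, B cells, erythroid, epithelial and fibroblast cells summed to at most 11.3 CPM per list in any library. Of the 4 plasma cell markers, a cell type rich in ER, TNFRSF17 and IGJ had at most 0.0315 CPM in any library, and the list summed to 4.50 and 3.83 CPM in Scrambled and 1.56 and 0.924 CPM in shPIWIL4.

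Most of the ER machinery was higher in the shPIWIL4 libraries. Of the 55 members, all of which passed the filter on low counts, 45 rose and 5 fell in the quasi-likelihood F test of edgeR, at p-values adjusted by Benjamini-Hochberg over all 16108 genes tested, and 5 were not called. Among all genes tested, 57.7% were called, 28.7% higher and 29.1% lower. Upper-quartile scaling gave 3446 higher and 5717 lower among all genes in place of 4618 and 4683, and again 45 higher and 5 lower among the members. At least a 2-fold rise was called for 21 members, against 4.79% of all genes tested, and at least a 2-fold fall for 0 members, against 11.3%. In 48 members both shPIWIL4 libraries lay above both Scrambled libraries and in 5 both lay below, which held for 39.1% and 39.5% of all genes tested. The median log2 fold change of the members was 0.82, and that of all genes tested was -0.0034. Members ranged from -0.88 for ERO1L to 2.48 for CRELD2. These are counts and medians of a list chosen with results of these data known, and the list as such was not tested.

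**Figure D1:**
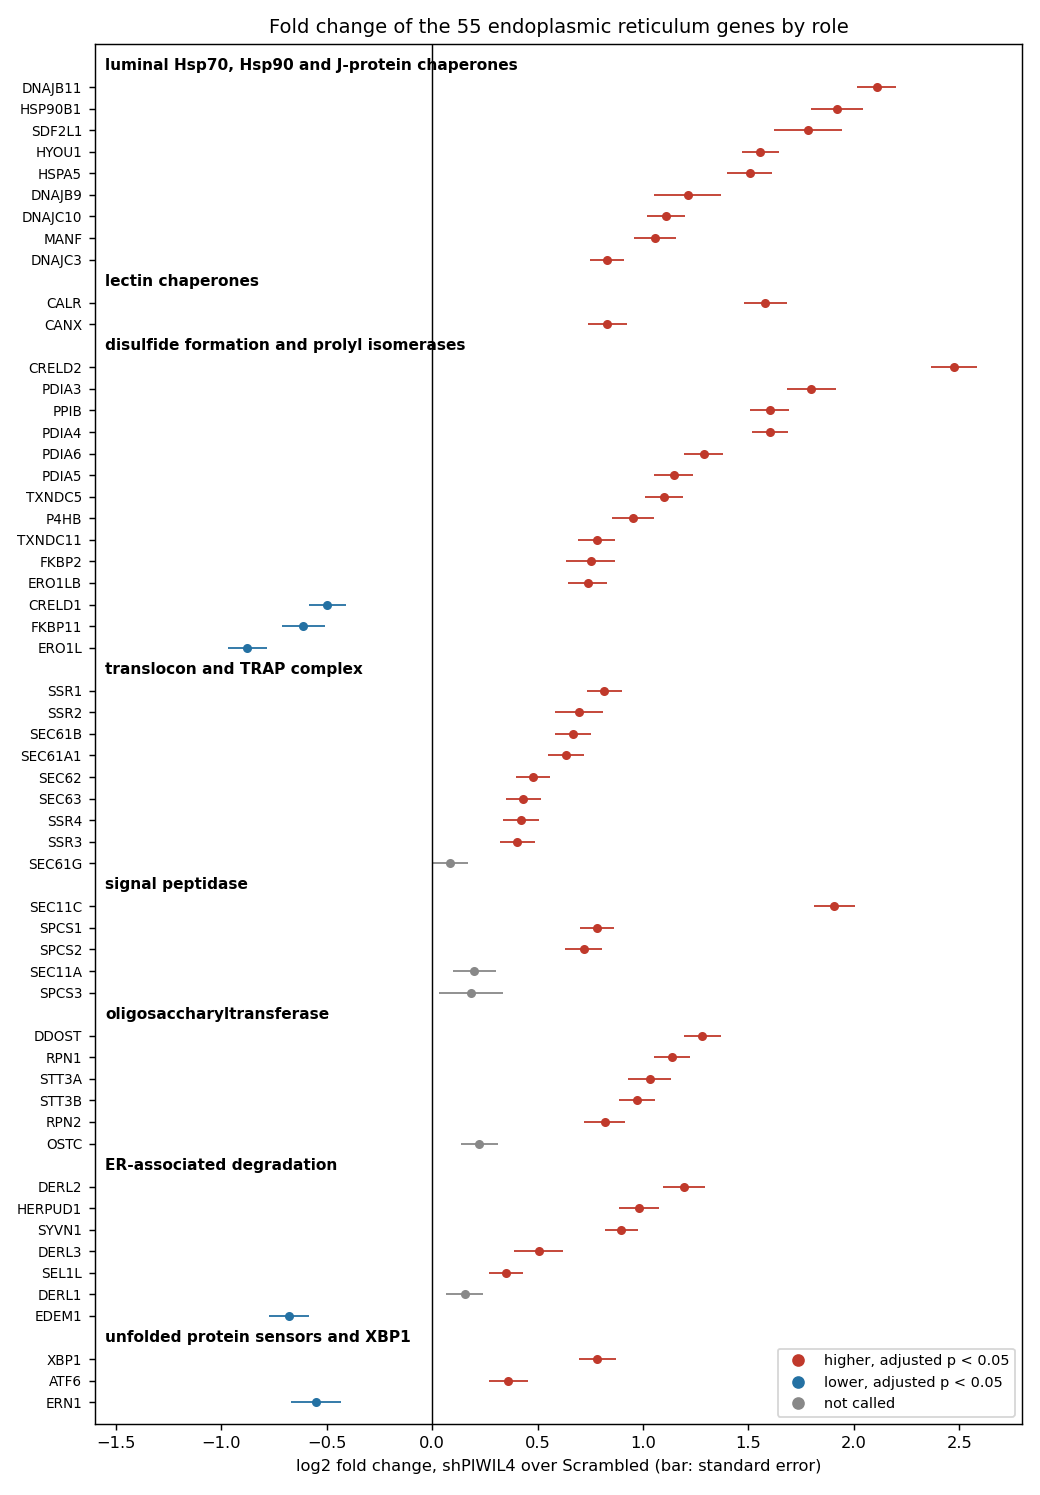
Log2 fold change of each member (x axis, shPIWIL4 over Scrambled, bars show the standard error) grouped by role on the y axis, with red for genes called higher, blue for genes called lower and grey for genes not called. All 9 luminal chaperones lie to the right of 0, translocon subunits lie closer to 0, and ERO1L, EDEM1, FKBP11, ERN1 and CRELD1 lie to the left.

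As a share of the reads counted, the 55 genes held 1.71% and 1.70% in the Scrambled pair of libraries and 3.67% and 3.85% in the shPIWIL4 pair. With 2 libraries a side, the smallest two-sided p of an exact permutation test on such a single value is 0.333, so none is given. In TPM, which corrects for gene length, the members summed to 13516 and 13517 in Scrambled and to 32055 and 33225 in shPIWIL4. In such bulk libraries a change in the share of some cells and a change of RNA within each cell cannot be told apart.

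**Figure D2:**
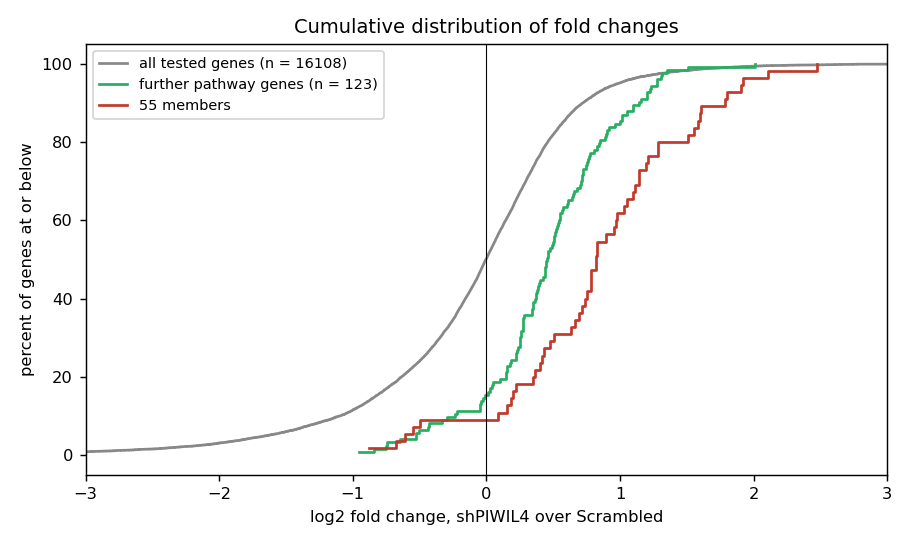
Percent of genes (y axis) with a log2 fold change at or below the value on the x axis, for all 16108 genes tested (grey), 123 further genes of the ER and secretory pathway (green) and the 55 members (red). The red curve lies to the right of the grey one over most of its range, and its lower end holds the 5 members that fell.

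Many of the genes that the unfolded protein response turns on carry an ER stress response element (ERSE), in which a CCAAT box, bound by NF-Y, stands 9 bases before CCACG, the part bound by ATF6 or XBP1. Promoter windows from RefSeq (build GRCh38.p14) were matched for 49 of the 55 members, ERO1L and ERO1LB under the names ERO1A and ERO1B, and the 250 bases before each listed gene start were searched on both strands. The motif, CCAAT followed by 9 bases of any letter and CCACG, was found in 8 of 49 members, which is 16.3%, against 0.0916% of all 27305 genes in the promoter table and 0.143% of the 11152 tested genes matched there. The shorter ERSE-II motif is ATTGG followed by 1 base of any letter and CCACG, and was added after the first motif had been searched. It was found in 3 of 49 members and in 0.117% of the matched tested genes. The members were listed by name as genes of this pathway, so these shares describe the list and are no result of the libraries. The short parts alone were common: CCACG, which lies within all of these elements, was in 39 of 49 members and 50.5% of the matched tested genes, and CCAAT, which lies within the ERSE and, on the other strand, within ERSE-II, in 36 of 49 and 40.7%. Neither element was found in the further genes of the pathway given at the end (0 of 102 matched genes). The elements are shown because they mark a subset of 11 members, 5′ to 3′ on the element's own strand with the conserved letters in capitals. Positions and gene strands are on GRCh38.p14, while the count tables were made on hg19 and carry no coordinates.
HSPA5 ERSE, chr9:125241391-125241409, gene on the minus strand: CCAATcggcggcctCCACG
HSP90B1 first ERSE, chr12:103930216-103930234, gene on the plus strand: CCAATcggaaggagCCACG
HSP90B1 second ERSE, chr12:103930321-103930339, gene on the plus strand: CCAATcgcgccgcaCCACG
CALR ERSE, chr19:12938384-12938402, gene on the plus strand: CCAATgatggtcgaCCACG
CANX ERSE, chr5:179698778-179698796, gene on the plus strand: CCAATcttcacactCCACG
CRELD2 ERSE, chr22:49918554-49918572, gene on the plus strand: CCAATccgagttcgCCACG
PDIA6 ERSE, chr2:10812853-10812871, gene on the minus strand: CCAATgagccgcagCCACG
ERO1LB ERSE, chr1:236282183-236282201, gene on the minus strand: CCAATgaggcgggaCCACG
XBP1 ERSE, chr22:28800603-28800621, gene on the minus strand: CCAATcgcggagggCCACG
HYOU1 first ERSE-II, chr11:119057274-119057284, gene on the minus strand: ATTGGaCCACG
HYOU1 second ERSE-II, chr11:119057380-119057390, gene on the minus strand: ATTGGaCCACG
SDF2L1 ERSE-II, chr22:21642114-21642124, gene on the plus strand: ATTGGtCCACG
HERPUD1 ERSE-II, chr16:56932025-56932035, gene on the plus strand: ATTGGgCCACG

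In HSPA5 the element lies just upstream of the gene start, which follows the last base of this 100-base stretch (chr9:125241344-125241443, minus strand, GRCh38.p14), in which capitals mark the CCAAT and CCACG parts.
HSPA5 promoter: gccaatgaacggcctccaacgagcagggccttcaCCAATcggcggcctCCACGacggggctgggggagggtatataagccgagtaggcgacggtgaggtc
HSP90B1 carries a pair of elements in opposite orientation within the 200 bases before its start (chr12:103930210-103930409, plus strand, GRCh38.p14), and the one nearer the start reads CGTGG and ATTGG on the gene's strand.
HSP90B1 promoter: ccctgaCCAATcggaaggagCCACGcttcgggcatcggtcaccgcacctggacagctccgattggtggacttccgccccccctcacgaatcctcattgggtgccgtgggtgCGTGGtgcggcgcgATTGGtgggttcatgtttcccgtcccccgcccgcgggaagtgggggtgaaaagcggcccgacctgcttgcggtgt

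All 11 members with an ERSE or ERSE-II were called higher, with log2 fold changes from 0.74 (ERO1LB) to 2.48 (CRELD2) and a median of 1.51. Of the 38 matched members with neither, 29 were called higher and 5 lower, with a median of 0.73. Outside the members, 18 tested genes held an element. Of these, 9 were called higher and 4 lower, with a median of 0.27. Among these other genes, named here after their values were seen, FICD, which modifies BiP by AMPylation, rose by 0.71 and NUCB1 by 0.91 on the log2 scale, while SERP1, a small protein of the translocon, fell by 0.31. These 9 higher and 4 lower of 18 stand beside 28.7% (higher) and 29.1% (lower) of all genes tested. Whether the element has a part in these changes was not tested. The core of another element, TGACGTGG, was found in 6 of 49 members and in 1% of the matched tested genes. Its members were HYOU1, DNAJC10, TXNDC5, SEC62, SSR3 and SSR4, all called higher, and in HYOU1 it overlaps an ERSE-II. Their median log2 fold change was 0.79, against 0.82 in the 43 matched members without the core. Of 106 other tested genes with it, 41 were called higher and 31 lower, against 28.7% and 29.1% of all genes tested. The median of these 106 was 0.09. A match is only a match of letters, and no binding was measured. Variants with other letters were not searched, so a member without a match may still hold one.

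**Figure D3:**
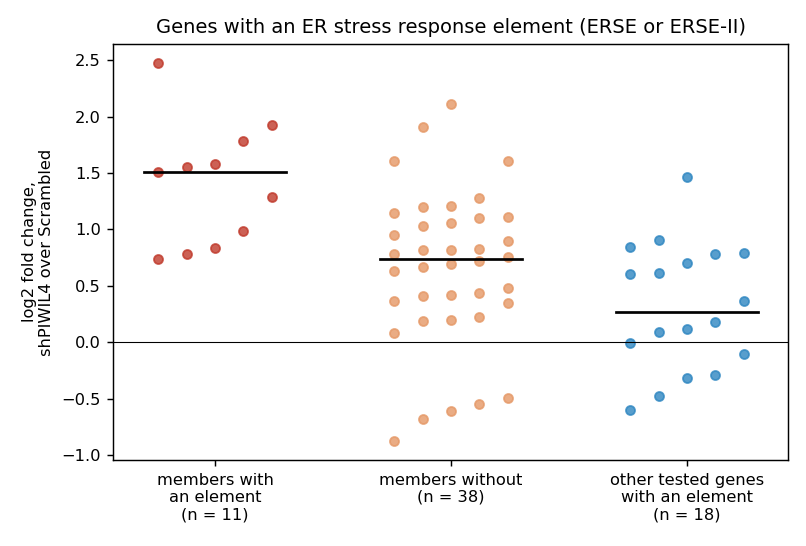
Log2 fold change (y axis) of members with an ERSE or ERSE-II in the 250 bases before a gene start (n = 11), of matched members without one (n = 38) and of other tested genes with one (n = 18). Points are genes, black bars are medians, and the genes with an element that are not members lie on both sides of 0.

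Luminal chaperones of the Hsp70 and Hsp90 families and their partners rose in 9 of 9 members, 8 of them at least 2-fold, with a median log2 fold change of 1.51. Of all genes tested, 28.7% were called higher, 29.1% lower and 4.79% higher by at least 2-fold. These are the shares to set beside this role and each role below. HSPA5 encodes BiP, the Hsp70 chaperone that binds nascent chains and holds the stress sensors inactive. It stood at 593 and 570.1 CPM in the Scrambled libraries and at 1524 and 1778 CPM in the shPIWIL4 libraries, a log2 fold change of 1.51 (SE 0.10, adjusted p = 4.9e-06 in edgeR). HSP90B1, the Hsp90 of the ER (GRP94), went from 1774 and 1622 CPM to 5815 and 7045 CPM, a 3.79-fold rise. Both genes carry the ERSE shown above. For both, every shPIWIL4 library lay above every Scrambled library, as for 39.1% of all genes tested, with shPIWIL4 library 2 the highest. DNAJB11, an Hsp40 co-chaperone that delivers substrates to BiP, had the largest change of the group. It was at 92.1 and 90.2 CPM in Scrambled and 368 and 418 CPM in shPIWIL4, a 4.31-fold rise (log2 fold change 2.11, SE 0.09, adjusted p = 4.5e-07 in edgeR). HYOU1, a large Hsp70-related protein that exchanges nucleotide on BiP, was at 343 CPM in both Scrambled libraries and at 995 and 1024 CPM in shPIWIL4. DNAJC10, a co-chaperone with reductase activity (ERdj5), rose from 42.1 and 41.5 CPM to 84.9 and 95.4 CPM. SDF2L1, which works with DNAJB11, MANF, a secreted stress protein that binds BiP, and DNAJB9, a co-chaperone that represses IRE1, had log2 fold changes of 1.78, 1.06 and 1.21. The smallest rise was in DNAJC3 (p58IPK), at 0.83. SDF2L1 and DNAJB9 had the widest spread, with standard errors of 0.16 each, and DNAJB9 rested on the fewest reads, 176 counts in Scrambled library 1.

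**Figure D4:**
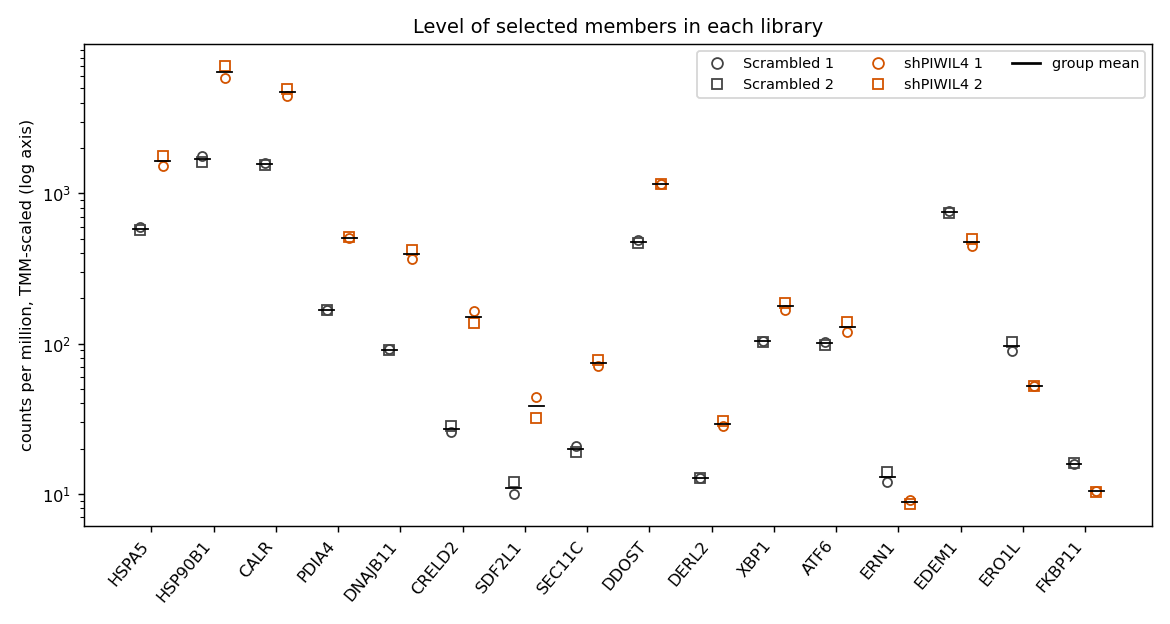
Level of 16 members in each of the 4 libraries, in TMM-scaled CPM on a log axis, with circles for library 1 and squares for library 2 of each group and black bars for the group means. The chaperones, SEC11C, DDOST, DERL2, XBP1 and ATF6 are higher in both shPIWIL4 libraries, and ERN1, EDEM1, ERO1L and FKBP11 are lower in both.

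Both lectin chaperones, which hold glycoproteins in the folding cycle, rose. Their libraries did not overlap, as for 39.1% of all genes tested in this direction. Calreticulin (CALR), the soluble one, was at 1588 and 1546 CPM in Scrambled and 4445 and 4928 CPM in shPIWIL4, a 2.99-fold rise. Calnexin (CANX), its membrane-bound counterpart, was at 1253 and 1292 CPM in Scrambled and 2196 and 2333 CPM in shPIWIL4, a 1.78-fold rise. Calreticulin was among the highest members per length, with a mean of 1641 TPM in Scrambled and 5058 TPM in shPIWIL4.

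Among 14 genes for disulfide formation and proline isomerisation, 11 rose and 3 fell. CRELD2, a stress-induced protein with disulfide isomerase activity, had the largest fold change of all members. It stood at 25.6 and 28.2 CPM in Scrambled and 163 and 136 CPM in shPIWIL4, a 5.56-fold rise (log2 fold change 2.48, SE 0.11, adjusted p = 4.5e-07 in edgeR). PDIA4, a multidomain disulfide isomerase found in complexes with BiP, was at 167 CPM in both Scrambled libraries and at 504 and 509.6 CPM in shPIWIL4. The thiol oxidoreductase gene PDIA3 (ERp57), the partner of calreticulin and calnexin, went from 654 and 596 CPM to 1964 and 2386 CPM. These libraries again did not overlap, as for 39.1% of all genes tested in this direction. PPIB, cyclophilin B, a proline isomerase of the ER, was at 676 and 646 CPM in Scrambled and 2013 and 2003 CPM in shPIWIL4. P4HB, the classical disulfide isomerase and the most highly expressed member per length in Scrambled, rose less, from a mean of 2360.5 to 4715 TPM (log2 fold change 0.95). The isomerases PDIA6, PDIA5 and TXNDC5 rose by 1.29, 1.14 and 1.10, and TXNDC11, FKBP2 and ERO1LB by 0.78, 0.75 and 0.74 on the log2 scale.

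The 3 members of this group that fell were ERO1L, CRELD1 and FKBP11, each with a relative among the members that rose (ERO1LB, CRELD2 and FKBP2). ERO1L (ERO1-alpha), an oxidase that recharges disulfide isomerases, was at 88.6 and 103 CPM in Scrambled and 52.3 and 52.0 CPM in shPIWIL4, and fell by 0.88 on the log2 scale (SE 0.09). CRELD1, the membrane-anchored relative of CRELD2, was at 64.3 and 65.0 CPM in Scrambled and 47.9 and 43.7 CPM in shPIWIL4, and fell by 0.50. FKBP11, a membrane-bound member of the FK506-binding proline isomerases, was at 15.7 and 16.0 CPM in Scrambled and 10.5 and 10.3 CPM in shPIWIL4. All 3 falls were called, with adjusted p from 5.2e-05 to 9.5e-04 in edgeR. In all 3 the groups did not overlap, as for 39.5% of all genes tested in this direction. In TPM the ratio of CRELD2 to CRELD1 was 0.667 and 0.726 in Scrambled and 5.72 and 5.22 in shPIWIL4, so that their order turned round. The ratio of ERO1LB to ERO1L was 0.167 and 0.155 in Scrambled and 0.495 and 0.491 in shPIWIL4, so ERO1L stayed the higher of the pair.

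**Figure D5:**
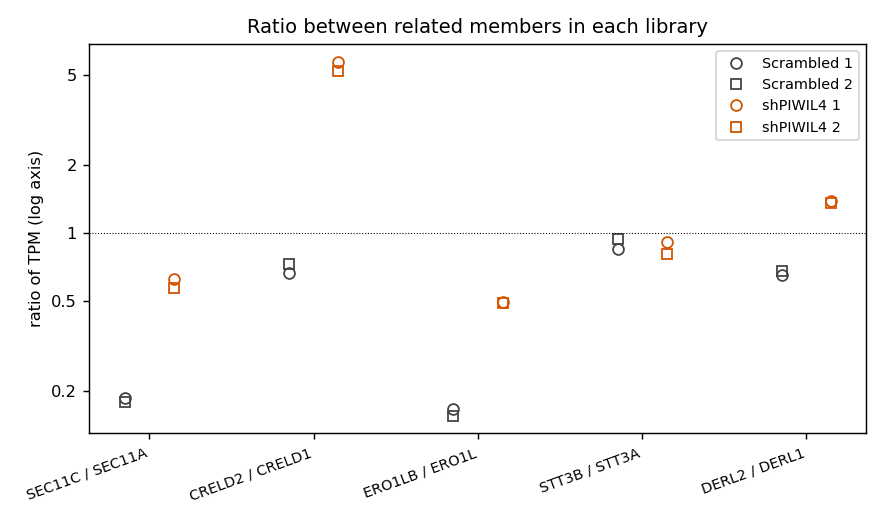
Ratio of TPM between related members (y axis, log scale) in each library, with circles for library 1 and squares for library 2 of each group. The ratio is higher in both shPIWIL4 libraries for SEC11C to SEC11A, CRELD2 to CRELD1, ERO1LB to ERO1L and DERL2 to DERL1, and overlaps between the groups for STT3B to STT3A.

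Translocation genes rose by smaller amounts, in 8 of 9 members and at least 2-fold in 0, with a median log2 fold change of 0.48. SSR1, a subunit of the TRAP complex that assists entry into the channel, had the smallest p. It was at 156 and 167 CPM in Scrambled and 287 and 282 CPM in shPIWIL4, a 1.76-fold rise. The pore subunit SEC61A1 was at 299 and 295 CPM in Scrambled and 449 and 472 CPM in shPIWIL4, a 1.55-fold rise. SEC61B, a small subunit of the channel, was at 36.7 and 38.4 CPM in Scrambled and 60.8 and 58.5 CPM in shPIWIL4, a 1.59-fold rise. The remaining small subunit, SEC61G, was at 68.8 and 64.6 CPM in Scrambled and 67.8 and 73.5 CPM in shPIWIL4, where the groups overlap, and was not called (adjusted p = 0.43 in edgeR, 0.12 to 0.91 over the alternatives). Its sign changed with upper-quartile scaling and with a stricter filter. SSR2 was at 397 and 349.9 CPM in Scrambled and 547 and 662 CPM in shPIWIL4. The other TRAP subunits SSR3 and SSR4, and SEC62 and SEC63, which act on post-translational import, rose by 0.40 to 0.48 on the log2 scale. The 3 Sec61 subunits, which form 1 channel, thus had log2 fold changes of 0.63, 0.67 and 0.08.

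Signal peptidase, which removes signal peptides, has SEC11A and SEC11C as alternative catalytic subunits, of which SEC11C was called. SEC11C was at 20.7 and 18.9 CPM in Scrambled and 70.8 and 77.2 CPM in shPIWIL4, a 3.75-fold rise (log2 fold change 1.91, SE 0.10, adjusted p = 8.5e-07 in edgeR). SEC11A was at 233 and 222 CPM in Scrambled and 237 and 285 CPM in shPIWIL4, with a log2 fold change of 0.20 (SE 0.10) that was not called (adjusted p = 0.12 in edgeR, 3.5e-04 to 0.53 over the alternatives). It was called without shPIWIL4 library 1 (adjusted p = 3.5e-04) and with no filter (0.043). The ratio of SEC11C to SEC11A in TPM was 0.187 and 0.179 in Scrambled and 0.628 and 0.570 in shPIWIL4. SEC11A thus remained the more abundant of the pair in every library. The accessory subunits SPCS1 and SPCS2 rose 1.72-fold and 1.64-fold, from 94.5 and 93.5 CPM to 157 and 167 CPM for SPCS1, and from 35.0 and 37.6 CPM to 58.9 and 60.6 CPM for SPCS2. SPCS3 was at 106 and 142 CPM in Scrambled and 158 and 123 CPM in shPIWIL4, and was not called. Its libraries overlapped between the groups, and it was called without Scrambled library 2 (adjusted p = 0.013) or without shPIWIL4 library 2 (adjusted p = 1.9e-04), in a range of 1.9e-04 to 1 over the alternatives.

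Oligosaccharyltransferase, which transfers the N-glycan, rose in 5 of 6 members, with a median log2 fold change of 1.00. DDOST (OST48), a core subunit of the complex, was at 485 and 464 CPM in Scrambled and 1146 and 1161 CPM in shPIWIL4, a 2.43-fold rise. RPN1, ribophorin I, was at 276 and 272 CPM in Scrambled and 592 and 615 CPM in shPIWIL4, a 2.20-fold rise. The alternative catalytic subunits STT3A and STT3B both rose, and their ratio overlapped between the groups. STT3A, which works beside the channel, was at 261 and 247 CPM in Scrambled and 479.5 and 559 CPM in shPIWIL4, a 2.04-fold rise. STT3B, which can glycosylate sites that STT3A skipped, was at 232 and 245 CPM in Scrambled and 458 and 476 CPM in shPIWIL4, a 1.96-fold rise. RPN2 rose 1.76-fold. OSTC, a subunit of the STT3A form, was at 77.2 and 73.6 CPM in Scrambled and 82.9 and 93.1 CPM in shPIWIL4. It was just outside the threshold (log2 fold change 0.22, SE 0.09, adjusted p = 0.054 in edgeR, 7.0e-04 to 0.34 over the alternatives) and was called without shPIWIL4 library 1 (adjusted p = 7.0e-04) and with no filter (0.017).

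ER-associated degradation, which returns misfolded proteins to the cytosol for the proteasome, moved in both directions, with 5 of 7 members higher and 1 lower. DERL2, a derlin that forms part of the retrotranslocation channel, was at 12.7 and 12.8 CPM in Scrambled and 28.2 and 30.3 CPM in shPIWIL4, a 2.29-fold rise. SYVN1, the ubiquitin ligase HRD1, was at 48.8 and 49.3 CPM in Scrambled and 91.2 and 91.5 CPM in shPIWIL4, a 1.86-fold rise. HERPUD1, which organises the HRD1 complex and carries an ERSE-II, was at 33.2 and 31.8 CPM in Scrambled and 60.5 and 67.8 CPM in shPIWIL4, a 1.97-fold rise. The libraries of these 3 genes did not overlap between groups, which held in this direction for 39.1% of all genes tested. EDEM1, a lectin-like factor that directs glycoproteins to degradation, went the other way. It was at 766 and 741 CPM in Scrambled and 444 and 497 CPM in shPIWIL4, and fell by 0.68 on the log2 scale (SE 0.09, adjusted p = 2.5e-04 in edgeR). At a mean of 245 TPM in Scrambled it was the highest of the 7 per length, and the group's summed share of counts was lower in shPIWIL4, 0.0835% and 0.0875% against 0.104% and 0.103% in Scrambled. Its sum per length was 397 and 401 TPM in Scrambled and 414 and 431 TPM in shPIWIL4. DERL3 rose by 0.50 and SEL1L, the partner of HRD1, by 0.35 (adjusted p = 0.0049 in edgeR). SEL1L was not called without Scrambled library 1 (adjusted p = 0.061, range 7.7e-05 to 0.061 over the alternatives). DERL1 was at 57.9 and 56.1 CPM in Scrambled and 60.2 and 66.6 CPM in shPIWIL4. It was not called (adjusted p = 0.16 in edgeR, 0.016 to 0.76 over the alternatives), except without shPIWIL4 library 1 (adjusted p = 0.016). The ratio of DERL2 to DERL1 in TPM was 0.655 and 0.677 in Scrambled and 1.39 and 1.35 in shPIWIL4.

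The sensors did not move as 1 group. XBP1, the transcription factor whose mRNA is spliced by IRE1, was at 105 and 102 CPM in Scrambled and 168 and 187 CPM in shPIWIL4, a 1.72-fold rise (adjusted p = 6.6e-05 in edgeR). Gene counts do not separate spliced from unspliced XBP1, and its splicing was not analysed here. ATF6, the sensor that is cleaved to release a transcription factor, was at 103 and 98.1 CPM in Scrambled and 119 and 139 CPM in shPIWIL4, a log2 fold change of 0.36 (adjusted p = 0.0087 in edgeR). ERN1, which encodes IRE1-alpha, was at 11.9 and 13.9 CPM in Scrambled and 9.12 and 8.58 CPM in shPIWIL4, and fell by 0.55 (adjusted p = 0.0034 in edgeR). Without Scrambled library 2, ATF6 (adjusted p = 0.055, range 1.4e-07 to 0.055 over the alternatives) and ERN1 (adjusted p = 0.062, range 1.7e-05 to 0.062) were not called.

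Further genes of the same pathways were taken from 8 lists with 124 members, all matched. TUSC3 had 0 counts in all libraries, and 123 were tested. Of these, 89 rose (72.4%) and 11 fell (8.94%), with a median log2 fold change of 0.45. Among all genes tested, 28.7% were called higher and 29.1% lower, the shares to set beside each list below. Genes called higher outnumbered those called lower in 7 of the 8 lists, all but the PERK branch, whose counts moved with the fit.

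Of 8 genes of the PERK branch, the arm of the response that limits translation, 2 rose (25%) and 5 fell (62.5%). The shares among all genes tested were 28.7% and 29.1%. The median log2 fold change of the 8 genes was -0.39. The 5 falls became 2 without Scrambled library 1 and 3 with DESeq2 or with the stricter filter, and the 2 rises became 1 without Scrambled library 2, with upper-quartile scaling or with the stricter filter. ATF3 and CHAC1, both among the 5 falls, stayed under 10 CPM in every library and so were not tested with the stricter filter. ATF4, the transcription factor of this branch, had a mean of 465 ± 19 CPM in Scrambled and 297 ± 25 CPM in shPIWIL4 (SD, n = 2 each) and fell by 0.65. PPP1R15A (GADD34), which restores translation, fell by 0.53. EIF2AK3, which encodes PERK, was at 19.3 ± 0.69 and 20.7 ± 2.9 CPM (SD, n = 2 each) and was not called (adjusted p = 0.47 in edgeR), except without shPIWIL4 library 1 (adjusted p = 0.041, highest 0.96 over the alternatives). Its sign changed with upper-quartile scaling and without shPIWIL4 library 2. DDIT3 (CHOP), a target of this branch, had a log2 fold change of 0.35 and was called (adjusted p = 0.023 in edgeR). The call on DDIT3 was lost with upper-quartile scaling (adjusted p = 0.11), with a stricter filter (0.083) and without Scrambled library 2 (adjusted p = 0.20), in a range of 4.8e-06 to 0.20 over the alternatives. EIF2S1, the translation factor subunit that PERK phosphorylates, rose by 0.55. Among 10 genes of ATF6 processing and related factors, 7 rose and 0 fell. The proteases that cleave ATF6 are encoded by MBTPS1 and MBTPS2, which rose by 0.39 and 0.75, and CREB3, a related ER-anchored factor, rose by 0.56.

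Folding genes outside the members rose in 17 of 24 cases (70.8%) and fell in 3 (12.5%), against 28.7% and 29.1% of all genes tested. The 17 rises became 11 without Scrambled library 1 and 10 with upper-quartile scaling or the stricter filter. FKBP7 and DNAJC25, both among the 17, stayed under 10 CPM in every library and were not tested with that filter. PPIC, cyclophilin C, rose from 22.9 ± 1.4 to 92.6 ± 1.7 CPM and PRDX4, the peroxiredoxin of the ER, from 51.3 ± 5.3 to 145.8 ± 9.3 CPM (SD, n = 2 each). TMX3, a membrane-bound disulfide isomerase, and FKBP9 fell by 0.50 and 0.43. Glycan trimming and further oligosaccharyltransferase genes rose in 9 of 10 tested members and fell in 0, among them the folding sensor UGGT1 (0.85) and the subunit KRTCAP2 (0.70). In the further degradation list 15 of 18 rose and 0 fell, led by the lectin ERLEC1 and by UFD1L, a cofactor of the p97 ATPase, at log2 fold changes of 1.23 each. In the list of the signal recognition particle and membrane insertion, 14 of 23 rose and 1 fell, or 3 fell with upper-quartile scaling. SRP14, a subunit of that particle, rose by 1.31, EMC7 of the ER membrane complex rose by 1.14, and CAMLG, a receptor for tail-anchored proteins, fell by 0.74.

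Of 10 genes for ER calcium and luminal calcium binding, 7 rose and 1 fell. The luminal calcium-binding proteins CALU and RCN2 rose by 1.28 and 0.77, and the calcium release channel gene ITPR3 fell by 0.84. In the list of export and retrieval, 18 of 20 genes rose and 1 fell. KDELR2, a receptor that returns escaped chaperones from the Golgi, rose from 143 ± 2.8 to 329 ± 1.9 CPM (SD, n = 2 each), and SAR1B, the GTPase that starts COPII vesicles, rose by 1.15. MCFD2, which helps LMAN1 carry clotting factors, fell by 0.30 (adjusted p = 0.016 in edgeR). It was not called without Scrambled library 1 (adjusted p = 0.17), without Scrambled library 2 (0.05) or with the replicate number as a term (adjusted p = 0.062), in a range of 9.1e-05 to 0.17 over the alternatives.

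Some counts may include reads of other genes. In GENCODE release 29, 34 of the 55 members overlap a gene on the opposite strand, and the strand setting of the counting is not given in the sources used here. CRELD2, for example, overlaps ALG12 and PPIB overlaps SNX22. Some members also overlap a gene on the same strand, which a strand setting would not separate, such as CHEK1 for STT3A and SEC22A for PDIA5. Pseudogenes named after PDIA3, SSR1, SSR4, SEC63, SPCS2, OSTC and XBP1 are annotated, so the values of these 7 genes are uncertain to the extent that their reads were shared.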

How the data were processed

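RNA-seq of 4 THP-1 libraries, 2 Scrambled and 2 shPIWIL4, grouped by sample title, was analysed from the raw read counts per gene that the authors deposited. STAR, featureCounts, DESeq2 and the build hg19 are named per the submitters' processing notes, while versions, gene annotation and strandedness were not given in the sources used here. TPM values, also deposited by the authors, served only for levels between genes and entered no test. The deposited FPKM values and normalized table were not used.

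The test was that of edgeR 4.0.16 (R 4.3.3): filterByExpr (minimum count 10, minimum total 15), TMM factors, a robust quasi-likelihood F test with group as the only term, and Benjamini-Hochberg adjustment over 16108 genes, called at an adjusted p under 0.05. The SE is the log2 fold change divided by the square root of F. TMM assumes that most genes are unchanged, and 57.7% were called, so higher and lower mean relative to the middle of the genes tested. Replicates differed by more than sampling noise (chi-square per gene 7.89 and 27.9). Spreadsheet dates had replaced 28 gene names. The script was tested on simulated counts. DESeq2 1.42.0, other scalings and filters, each library left out, the replicate number as a term and a 2-fold call rule were tried.

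The members and lists were chosen with earlier results of these data known. Values in every library are given for the 4 members per role with the smallest p, called members that went against their role and the sensors. Further genes, up to 2 called in each direction per list with EIF2AK3 and MBTPS1 added, have group means or a log2 fold change only. Search motifs were matched by letters in RefSeq promoter windows on GRCh38.p14. Protein sequences were not used here. Precision rests on the spread between 2 libraries a group, which was larger than counting error.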

Additional observations from a re-analysis of the deposited data

How the results depend on the processing

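The 45 rises and 5 falls among the members varied little over 11 refits with another scaling, filter, tool, block or a library left out: 44 to 48 were higher and 4 to 5 lower, and 47 of the 50 called members were called in every one. The exceptions were SEL1L, ATF6 and ERN1. Of the 5 members not called, 4 were called in at least 1 refit. Requiring a 2-fold change left 21 members higher and 0 lower, 19 further pathway genes higher and 0 lower, and the number of all tested genes called was then 2595. A stricter filter of 10 CPM in 2 libraries left 6002 called, as fewer were tested. The members' median log2 fold change was 0.70 with upper-quartile factors, 0.77 with library totals, 0.86 with no filter, 0.72 with the stricter filter, and 0.82 to 0.87 with 1 library left out. Upper-quartile factors moved the median of all genes to -0.12. They turned SEC61G to -0.038 and EIF2AK3 to -0.019, the stricter filter turned SEC61G to -0.012, and EIF2AK3 ran from -0.038 without shPIWIL4 library 2 to 0.25 without shPIWIL4 library 1. The cause was not tested. Rises among the further pathway genes varied more than those among the members. They numbered 89 in the main fit, 71 with upper-quartile factors and 77 with the replicate block. With the stricter filter, under which some of these genes were not tested, they numbered 72. Falls among these genes went from 11 to 14 with upper-quartile factors. Further pathway genes that fell numbered 7 to 11 with 1 library left out, 7 without Scrambled library 1. Leaving out a library leaves 1 in its group, which is assumed to vary like the other group. The titles number the libraries 1 and 2 in both groups (exp. rep1 and exp. rep2) but do not say what they share. Same-numbered libraries deviated in opposite directions (r = -0.48 over 16108 genes), and with the replicate number as a block 45 members were higher, 5 lower and 8118 of all genes were called. Among the 55 members and the 24 further pathway genes named by rule, the block changed the call of MCFD2 only. Reads limit few members: the smallest count was 176, for DNAJB9.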
